A study of Mus musculus with 8 samples.

Results

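The genes described here are 6 members of the common gamma chain cytokine system: the cytokines Il2, Il21 and Il15, the IL-15 presenting chain Il15ra, and the receptor chains Il2rb and Il2rg. They were taken by name from the 32285 genes of the count table, and all 6 were found. The levels were followed in 22441 CD45+ immune cells of 16 beta cell grafts, and 27 pairs of a member and a cell population were compared between genotypes and days. NIT-1 is a beta cell line derived from a NOD mouse. WT and Rnls mutant NIT-1 cells were placed under the skin on opposite flanks of the same NOD.scid mice, which lack T and B cells of their own but keep NK and myeloid cells, and autoreactive splenocytes of diabetic NOD mice were then given to all hosts. Grafts were taken at day 10 or day 17, and living CD45+ cells were sorted, so the mutated cells themselves are not in the data and Rnls was not used to check the labels. The age of the hosts, and whether the Rnls mutant line is 1 clone, are not given in the sources used here.

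The common gamma chain, encoded by Il2rg, is shared by the receptors of IL-2, IL-4, IL-7, IL-9, IL-15 and IL-21, and passes their signal on through the kinase Jak3 and STAT factors. IL-2 and IL-15 also share the beta chain Il2rb, and differ in the remaining chain: Il2ra raises the affinity for IL-2 on the responding cell, while Il15ra mostly holds IL-15 on the surface of the cell that makes it and shows it to a neighbour. IL-2 is made mainly by activated CD4+ T cells and is needed by regulatory T cells, IL-15 is made mainly by myeloid cells and keeps NK cells and memory CD8+ T cells alive, and IL-21 is made by helper T cells that act on B cells and CD8+ T cells.

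In the mouse genome (GRCm38, GENCODE annotation) all 6 members are protein-coding genes. Il2 lies on chr3:37120523-37125959 and Il21 on chr3:37222759-37232636, both on the minus strand with 96799 bases between them. Il15 is on the minus strand of chr8:82331632-82403222. Il15ra is on the plus strand of chr2:11705290-11734317 and starts 12096 bases after the end of Il2ra. Il2rb is on the minus strand of chr15:78479256-78495271 and Il2rg on the minus strand of chrX:101264378-101268255. The 250 bases before the start of Il2 and Il21 are shown because these neighbouring genes were both read mainly from CD4+ T cells, and only Il21 passed the test between the days there. The sequences are from RefSeq (GRCm38.p6, the C57BL/6J reference and not the NOD genome), where 4 of the 6 members have an entry and 2 do not. They are written from 5′ to 3′ on the minus strand, for chr3:37125955-37126204 (Il2) and chr3:37232637-37232886 (Il21), and capitals mark GGAAA or its reverse TTTCC, the core recognised by NFAT factors.
Il2: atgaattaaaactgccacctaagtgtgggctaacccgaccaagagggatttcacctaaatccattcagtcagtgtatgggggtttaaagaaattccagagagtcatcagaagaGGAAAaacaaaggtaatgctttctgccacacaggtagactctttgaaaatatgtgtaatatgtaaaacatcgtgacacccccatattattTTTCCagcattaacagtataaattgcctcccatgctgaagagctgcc
Il21: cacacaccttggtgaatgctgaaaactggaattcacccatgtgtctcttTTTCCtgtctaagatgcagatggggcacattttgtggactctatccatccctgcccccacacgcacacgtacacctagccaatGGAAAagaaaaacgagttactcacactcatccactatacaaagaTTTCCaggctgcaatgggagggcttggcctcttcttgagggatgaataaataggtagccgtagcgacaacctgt
The Il2 window held 2 of these cores, which began 137 and 47 bases before the start, and the Il21 window held 3, at 201, 118 and 74 bases. The AP-1 motif TGANTCA, searched on both strands, was found in neither window. At least 1 NFAT core was found in 55.6% of 32851 promoter windows of the same length, at least 2 in 21.4% and at least 3 in 6.39%, and the AP-1 motif in 6.75%. A match describes letters in the reference and does not show that a factor binds there. Only exact matches were searched, so a missing match does not show that a site is absent.

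The cells came from 4 libraries, each with 4 grafts of 1 genotype at 1 day marked by hashtag antibodies, so genotype, day and library cannot be told apart. Which hashtags of the WT and Rnls mutant libraries belong to 1 mouse is not given, so every comparison of the days counts both grafts of a mouse as separate replicates. For the same reason the main comparisons of the genotypes are unpaired, although the grafts were paired within mice. Values are in CPM, the unique molecular identifiers (UMIs) of a gene per 1000000 UMIs of the same graft and cell type, counted at the 3′ end of transcripts and not scaled to transcript length, so levels were compared between cell types and grafts and not between genes. Between 1742746 and 9729233 UMIs were counted per graft, with a median of 3083 to 5902 per cell in the 4 libraries, and 42 of 22399 barcodes were present in more than 1 library. The 12 cell types were those that the authors deposited. Every fixed marker was highest in its own type for regulatory T cells (5 of 5), macrophages (5 of 5), granulocytes (4 of 4) and B cells (4 of 4), against 6 of 7 for dendritic cells (DC), 4 of 5 for NK cells, 3 of 5 for CD8+ T cells, 3 of 5 for monocytes, 3 of 6 for type 1 innate lymphoid cells (ILC1) and 1 of 4 for CD4+ T cells, whose T cell markers are shared with the other T cells. The type named Stem-Progenitor held cluster 11 (653 cells), led by Hist1h1b, Pclaf, Top2a, Hist1h2ap and Hmgb2, genes of dividing cells, and cluster 24 (177 cells), led by the granzymes Gzmd, Gzme, Gzmc and Gzmg and by Spp1. It carried T cell and NK cell transcripts (Cd3e 473 CPM, Ncr1 79.2 CPM). Within a type, grafts with at least 10 cells were used, which left 16 grafts for most types, 15 for monocytes, 14 for regulatory T cells, 12 for granulocytes and for Stem-Progenitor cells, and 8 for ILC1.

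The members were read from different sets of cells. CD4+ T cells held 87.9% of 906 Il2 UMIs and 81.5% of 324 Il21 UMIs. Of the Il2 UMIs of a graft, CD4+ T cells held a median of 90.8% at day 10 and 79.2% at day 17 (lowest graft 42.9%). For macrophages these medians were 1.29% and 17.2%, with 52.4% in the highest graft of day 17. Macrophages (61.9%), monocytes (19.2%), granulocytes (9.04%) and DC (8.54%) held nearly all of 2202 Il15 UMIs. Il15ra, with 1542 UMIs, was spread over macrophages (28.3%), DC (21.9%), CD4+ T cells (13.5%), monocytes (13.4%) and CD8+ T cells (10.8%). The 11285 Il2rb UMIs were almost all in lymphoid cells, with 31.6% in CD4+ T cells, 19.9% in CD8+ T cells, 19.8% in NK cells and 19.8% in Stem-Progenitor cells, whereas the 25684 Il2rg UMIs were divided among CD4+ T cells (31.6%), macrophages (20.9%), CD8+ T cells (16.5%) and all other types. The types were annotated from these same counts, so the order of levels between types is a description without a test.

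**Figure D1:**
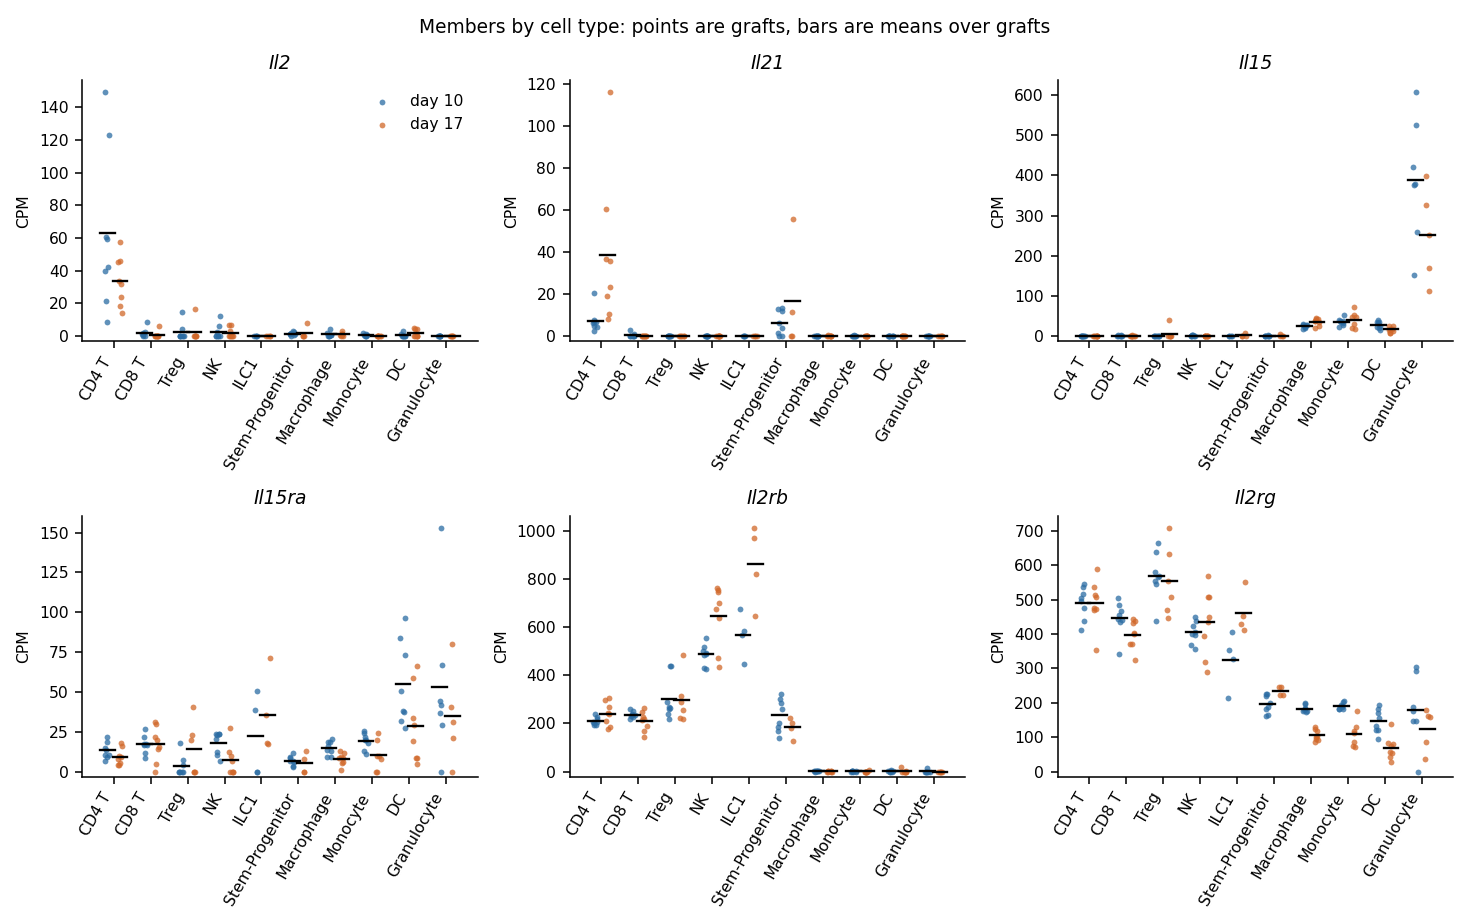
Level of each member in CPM (vertical axis) by cell type, with 1 point per graft of at least 10 cells, coloured by day, and the mean over the grafts of a day as a bar. Over all grafts, Il2 stood highest in CD4+ T cells (mean 48.4), Il15 in granulocytes (331), Il2rb in ILC1 (715) and Il2rg in regulatory T cells (563).

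Il2, the T cell growth factor, reached 48.4 ± 37.9 CPM in CD4+ T cells (mean ± SD, n = 16 grafts). The next type, regulatory T cells, was at 2.54, and its highest graft (16.7) lay within the range of CD4+ T cells. These reads came from very few cells. Only 151 of 4876 CD4+ T cells (3.10%) had an Il2 UMI, and 17 cells with at least 10 UMIs each held 59.3% of the 796 Il2 UMIs of the type, with 74 UMIs in the highest cell. In macrophages, which are not known as a source of IL-2, Il2 was found in 47 of 7179 cells (0.655%), always as a single UMI, although macrophages were read more deeply (median 4719 UMIs per cell). Il2 in CD8+ T cells amounted to 16 UMIs in 10 of 3449 cells. With every cell thinned to 1000 UMIs, the share of CD8+ T cells with an Il2 UMI was 0.134%, against 0.120% in macrophages and 1.67% in CD4+ T cells. Of the 10 CD8+ T cells, 7 had 1 Il2 UMI and the highest had 4.

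In CD4+ T cells, Il2 varied more among the grafts of a group than between groups. The 4 WT grafts at day 10 were at 39.7, 60.9, 123 and 42.1 CPM, and the 4 Rnls mutant grafts at day 10 at 149, 59.2, 8.56 and 21.3. At day 17 the WT grafts were at 23.8, 45.4, 34.0 and 57.3 and the Rnls mutant grafts at 46.0, 18.7, 32.0 and 13.9. The groups overlapped throughout, and single cells held much of the signal. At day 10, 74 of the 126 Il2 UMIs of Rnls mutant graft 1 (58.7%) came from 1 cell, while the highest cell of Rnls mutant graft 3 held 3. Day 17 was lower than day 10 by a log2 fold change of -0.93 ± 0.45 (SE), which did not pass in edgeR (adjusted p = 0.109). For the means of 62.9 and 33.9 the exact test over grafts had p = 0.148. The day call came and went with the settings: it passed without a filter on low counts (-1.01, adjusted p = 8.55e-10) and without Rnls mutant graft 3 of day 10 (-1.15, adjusted p = 0.0222). At day 10, 14 CD4+ T cells had at least 10 Il2 UMIs, out of 3491 cells, and at day 17 there were 3 out of 1385.

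**Figure D2:**
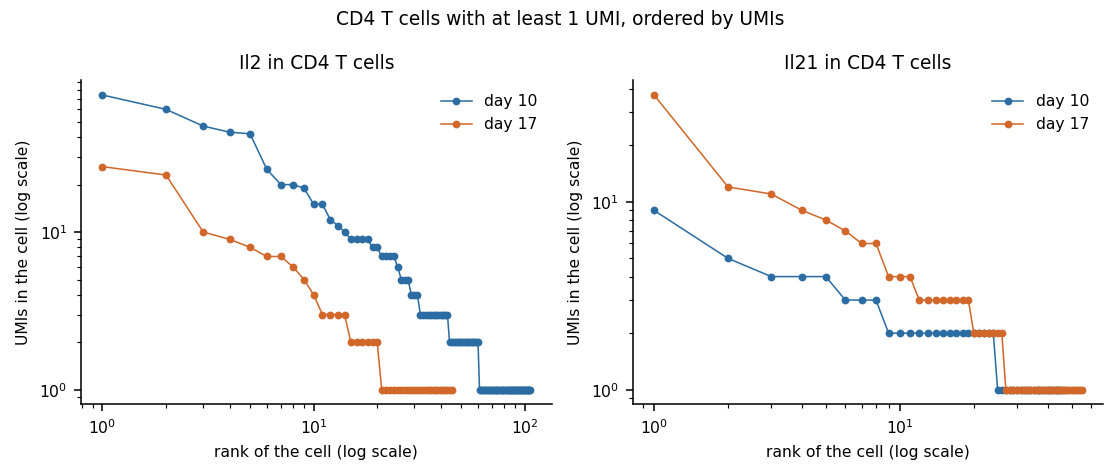
Il2 and Il21 UMIs in each CD4+ T cell that had any (vertical axis, log scale), by the rank of the cell (horizontal axis, log scale) and by day. The highest Il2 cell had 74 UMIs at day 10 and 26 at day 17, and the highest Il21 cell had 9 at day 10 and 37 at day 17.

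Il21, the helper T cytokine, rose between the days. In CD4+ T cells it was at 6.62, 4.73, 20.5 and 4.39 CPM in the WT grafts of day 10 and at 2.36, 6.51, 7.55 and 6.78 in the Rnls mutant grafts of day 10. At day 17 the WT grafts were at 36.8, 8.25, 116 and 60.7 and the Rnls mutant grafts at 19.3, 10.4, 36.0 and 23.2. All 8 day 17 grafts lay above 7 of the 8 day 10 grafts, and 5 of them also above the remaining day 10 graft, WT graft 3. Il21 was 4.11-fold higher at day 17 (log2 2.04 ± 0.38 SE, edgeR adjusted p = 0.000256), against 36.6% of 7858 genes called in either direction between the days in this cell type. The means of the days were 7.43 and 38.8 CPM (exact permutation test within genotypes, p = 0.00286, adjusted p = 0.0147 over the 27 pairs), and the share of cells with an Il21 UMI, thinned to 1000 UMIs, was 0.387% and 2.16% (exact adjusted p = 0.00551). Leaving out each graft in turn kept the call, with a log2 change of 1.73 to 2.48. At day 17, 55 of 1385 CD4+ T cells had an Il21 UMI and at day 10 46 of 3491. In WT graft 3 of day 17, 37 of 58 Il21 UMIs (63.8%) were in 1 cell. The summed level of the 5 macrophage markers in CD4+ T cells was 15.3 to 37.7 CPM at day 10 (median 25.8) and 50.6 to 244 at day 17 (median 134). A single Il21 UMI was found in 7179 macrophages, and the part of macrophage RNA in the result was not tested. The genotypes did not differ past the threshold at day 17 (Rnls mutant against WT, log2 -1.35 ± 0.49 SE, edgeR adjusted p = 0.370, unadjusted p = 0.0117) nor at day 10 (-0.60 ± 0.58, adjusted p = 0.834). Without the filter on low counts the day 17 difference was called (-1.34, edgeR adjusted p = 0.000726), at nearly the same log2 change as in the main fit. With each graft left out in turn the change ran from -1.66 to -0.73 and was called in none of the 16 fits. The exact test on CPM, which uses no model of the spread, gave no p below 0.143 for any pair between the genotypes at day 17.

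The authors' clusters divided these CD4+ T cells between the days. Cluster 0, led by Ifng, Tnfrsf4, Ccl1, Tnfsf8 and Cd40lg, made up 59.6 ± 8.35% of the CD4+ T cells of a graft at day 10 (SD, n = 8) and 8.84 ± 5.99% at day 17. Cluster 8, led by Tnfsf8, Lef1, Cd4, Inpp4b and Cd40lg, went from 5.60 ± 4.32% to 69.7 ± 7.66%. Over all cells pooled, Il2 was at 91.8 CPM in cluster 0 and 21.4 in cluster 8, and cluster 0 held 73.3% of all Il2 UMIs. Il21 was at 15.6 in cluster 0 and 33.2 in cluster 8, which held 38.3% of all Il21 UMIs. This order comes from pooling the days and turns when grafts are weighted alike, with 33.8 ± 43.2 in cluster 0 (12 grafts) and 24.1 ± 39.0 in cluster 8 (15 grafts). Within cluster 0, Il21 was at 11.1 ± 7.80 in 8 grafts of day 10 and 79.2 ± 50.8 in the 4 grafts of day 17 with enough cells. Within cluster 8 it was at 4.29 ± 11.3 in 7 grafts and 41.4 ± 46.8 in 8. Cluster 0 thus had the higher mean at each day. The days overlapped in both clusters, and clusters were drawn from the same counts, so these values are given without a test. Il2 within cluster 0 was at 91.0 ± 68.6 in day 10 grafts and 148 ± 111 in 4 day 17 grafts. The part of the clusters in the Il2 level of all CD4+ T cells was not tested. Il2 and Il21 were found together in 12 of 4876 CD4+ T cells. Of the remaining Il21 UMIs, 55 were in the Stem-Progenitor type, all of them in cluster 11. At day 10, Stem-Progenitor cells held a median of 31.0% of the Il21 UMIs of a graft and CD4+ T cells 62.4%. At day 17 these medians were 0% and 99.2%. The fit of CD4+ T cells does not include the Stem-Progenitor cells.

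**Figure D3:**
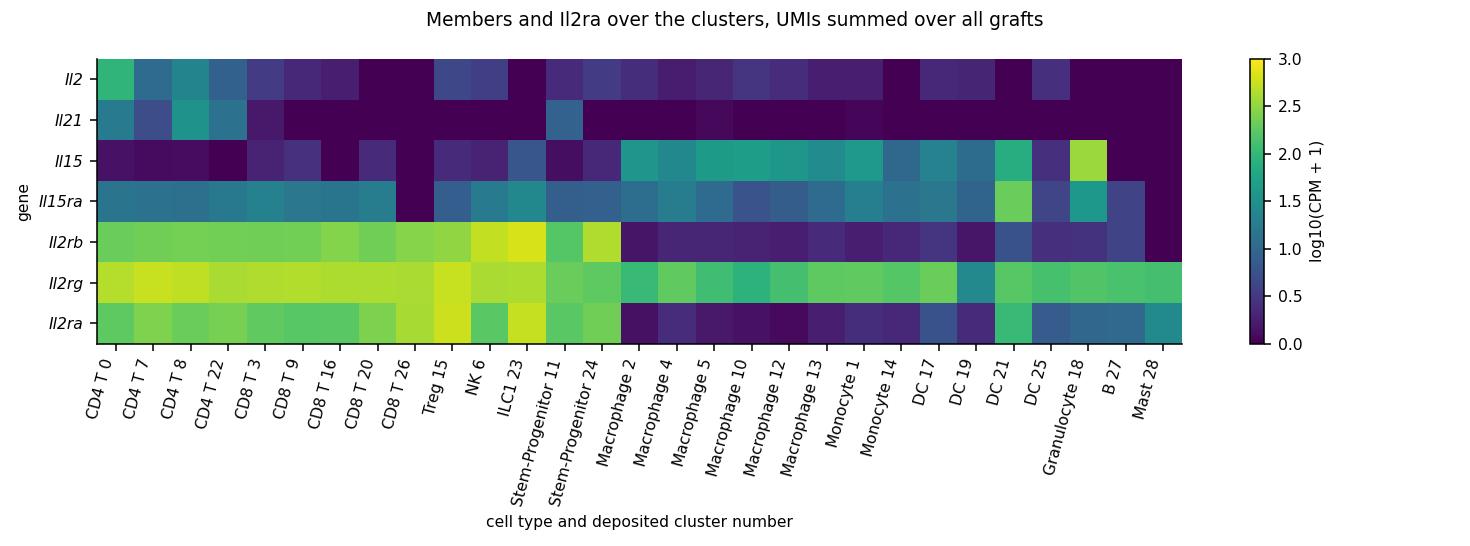
Levels of the members and of Il2ra (rows) in each of the authors' 29 clusters (columns), with cells pooled over grafts and colour as log10(CPM + 1). Il2 was highest in CD4+ cluster 0 (91.8), and Il21 was at 33.2 in CD4+ cluster 8 and 15.6 in cluster 0, an order that turns in the means over grafts, while Il15ra was highest in DC cluster 21 (208).

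Il15 had its highest level in granulocytes, a type of 369 cells (1.64% of all). The level in granulocytes was 331 ± 149.8 CPM in 12 grafts. The lowest graft, at 113, lay above the highest graft of every other type with enough cells. CPM is relative to the UMIs of the type, and granulocytes had a median of 1319 per cell, against 4719 in macrophages. Unthinned, 30.4% of granulocytes and 14.8% of macrophages had an Il15 UMI. Monocytes followed with 38.5 ± 14.9, macrophages with 30.6 ± 8.85 and DC with 22.5 ± 9.56, whose grafts overlapped, and all other types had a mean of 2.80 or less. In granulocytes the WT grafts of day 10 were at 258, 153 and 420.2 and the Rnls mutant grafts at 378, 606, 375 and 525, and at day 17 they were at 251 and 113 and at 399, 169.7 and 326. The days overlapped (388 ± 153, n = 7, and 252 ± 115, n = 5), and no test was planned for this type.

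Macrophages held most of the Il15 UMIs over all cells, but not at both days. Of the Il15 UMIs of a graft, a median of 27.3% was in macrophages at day 10 and 87.7% at day 17, while monocytes went from 31.2% to 3.70%. The level in macrophages was 28.5, 22.3, 17.9 and 24.7 CPM in WT grafts of day 10 and 28.8, 21.0, 26.8 and 30.8 in Rnls mutant grafts of day 10. At day 17 it was 25.0, 20.8, 45.2 and 43.4 in WT and 43.5, 36.8, 38.7 and 35.0 in Rnls mutant grafts. All 4 Rnls mutant grafts of day 17 lay above all day 10 grafts, whereas 2 of the 4 WT grafts of day 17 lay within the day 10 range. The rise from a mean of 25.1 to 36.0 passed in edgeR (log2 0.41 ± 0.15 SE, adjusted p = 0.0313, where 50.9% of 9331 genes were called in macrophages) and in the exact test (adjusted p = 0.0220). It was lost in 6 of 16 fits with 1 graft left out, which were those without WT graft 2 or 3 of day 10, WT graft 3 or 4 of day 17, Rnls mutant graft 2 of day 10 or Rnls mutant graft 1 of day 17 (edgeR adjusted p of 0.0533 to 0.0977). In monocytes Il15 did not differ between the days past the threshold (36.2 and 41.1, log2 -0.09 ± 0.33, edgeR adjusted p = 0.904, 14.4% of 8092 genes called). In DC it was lower at day 17 (28.3 and 16.7) in the exact test (adjusted p = 0.0361) but not in edgeR (-0.66 ± 0.26, adjusted p = 0.0683, 27.1% of 5700 genes called), where it passed without WT graft 4 of day 10 (adjusted p = 0.0444) or WT graft 2 of day 17 (adjusted p = 0.0482).

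Il15ra, which presents IL-15 to neighbouring cells, was found at low levels in nearly every type. Granulocytes (45.4 ± 40.9 CPM), DC (41.6 ± 27.5) and ILC1 (29.0 ± 25.0) had the highest means, followed by CD8+ T cells (17.1 ± 8.40), monocytes (15.0 ± 8.38), NK cells (12.5 ± 9.95), CD4+ T cells (11.3 ± 5.37), macrophages (11.3 ± 5.20), regulatory T cells (8.06 ± 12.6) and Stem-Progenitor cells (6.29 ± 4.13), and the grafts of all neighbours in this order overlapped. In macrophages it was at 12.7, 13.4, 16.2 and 9.16 CPM in WT and 18.3, 18.4, 9.31 and 20.2 in Rnls mutant grafts of day 10, against 8.33, 1.16, 11.5 and 5.67 and 9.17, 5.87, 8.51 and 12.8 at day 17. The days overlapped in a few grafts, and the mean went from 14.7 to 7.87 (log2 -0.98 ± 0.23 SE, edgeR adjusted p = 0.00186, exact adjusted p = 0.0173). The call was kept in all 16 fits with 1 graft left out. Il15 and Il15ra, summed over all macrophages, thus moved in opposite directions between the days. Macrophage clusters 4 and 13, whose shares fell, had pooled Il15 levels of 24.4 and 27.2 CPM and Il15ra levels of 17.0 and 10.2. Clusters 2, 5, 10 and 12, whose shares rose, had Il15 at 36.0, 42.0, 46.0 and 38.0. Their Il15ra was at 11.1, 10.1, 4.81 and 6.76. The part of the clusters in these changes was not tested. The fitted change of Il15ra in monocytes was like in size but did not pass (19.2 and 10.2, log2 -1.05 ± 0.45, edgeR adjusted p = 0.124), and passed without WT graft 3 of day 17 (-1.37, adjusted p = 0.0475).

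In DC, Il15ra was at 83.6, 37.6, 50.6 and 31.9 CPM in WT and 96.3, 37.8, 27.2 and 73.2 in Rnls mutant grafts of day 10. At day 17 it was at 4.48, 58.9, 8.70 and 19.0 and at 33.4, 8.43, 29.0 and 66.3. The highest graft of each genotype at day 17 lay well inside the day 10 range. The lower mean at day 17 (54.8 and 28.5) did not pass in edgeR (log2 -1.04 ± 0.41, adjusted p = 0.0636), but it did without WT graft 2 of day 17 (-1.63, adjusted p = 0.00525), without Rnls mutant graft 3 of day 10 (-1.15, adjusted p = 0.0376) and without the filter on low counts (-1.11, adjusted p = 0.000150). Much of the DC signal was in a single cluster. Cluster 21, led by Fscn1, Ccr7 and Ccl22, genes of migratory DC, had 240 cells and 208 Il15ra CPM, and held 17.4% of the Il15ra UMIs of the whole data set. It also carried Il15 at 73.6 and Il2ra, the high-affinity IL-2 chain, at 108. Cluster 21 made up 27.7 ± 13.3% of the DC of a graft at day 10 and 13.2 ± 9.72% at day 17, and its pooled Il15ra level was 206 at day 10 and 215 at day 17, the latter from 30 cells and 47 UMIs. Il15 and Il15ra were found together in 54 of 1104 DC, or 0.329 ± 0.265% per graft after thinning.

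**Figure D4:**
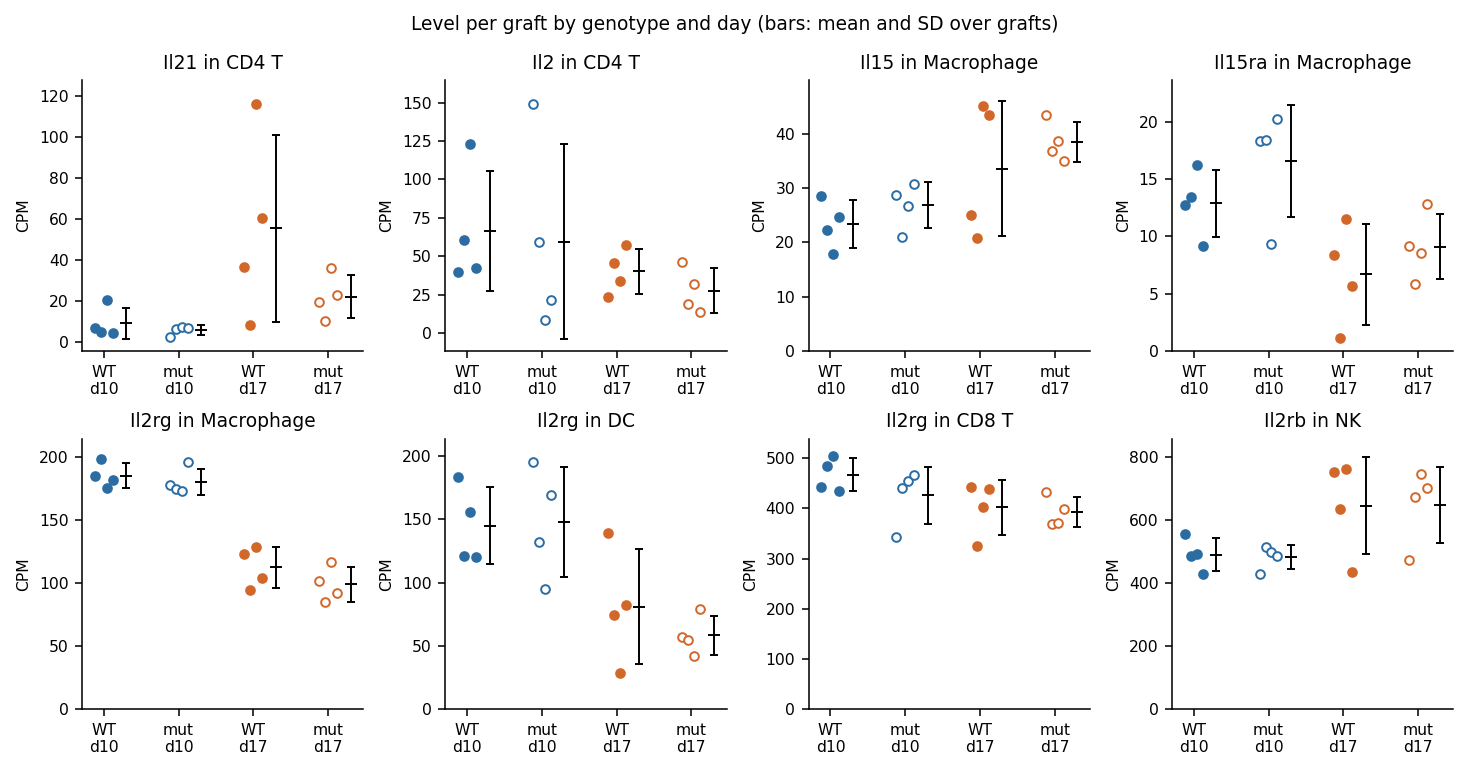
CPM in every graft for members in selected cell types, by genotype and day, with 1 point per graft and the mean and SD as bars. Il2rg in macrophages did not overlap between the days (means 183 and 106), and Il21 in CD4+ T cells had a mean of 7.43 at day 10 and 38.8 at day 17.

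Il2rb, the beta chain that receives both IL-2 and IL-15, marked lymphoid cells. ILC1 had 715 ± 200.4 CPM and NK cells 567 ± 124, which overlapped, followed by regulatory T cells (300.2 ± 88.4), CD4+ T cells (226 ± 38.1), CD8+ T cells (223 ± 31.8) and Stem-Progenitor cells (217 ± 63.1), which also overlapped as neighbours. Then came a gap without overlap to DC at 2.27. In macrophages an Il2rb UMI was found in 37 of 7179 cells (0.515%). Both Il2rb and Il2rg were found, after thinning, in 14.9 ± 3.69% of NK cells, 16.2 ± 6.16% of ILC1, 10.3 ± 3.97% of regulatory T cells, 8.13 ± 2.01% of CD4+ and 6.70 ± 1.62% of CD8+ T cells. All chains of the high-affinity IL-2 receptor, Il2ra, Il2rb and Il2rg, were found together in 6.38 ± 5.12% of ILC1 and 4.93 ± 4.16% of regulatory T cells, against 2.32% of NK cells, 1.50% of CD4+ and 1.32% of CD8+ T cells.

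In NK cells Il2rb was at 556, 486, 492 and 429.8 CPM in WT and 428, 516, 499 and 487 in Rnls mutant grafts of day 10. At day 17 it was at 752, 636, 763 and 434 and at 473, 674, 746 and 701, so that 3 of 4 grafts of each genotype lay above every day 10 graft. The rise of the mean from 487 to 647 passed narrowly in edgeR (log2 0.37 ± 0.13 SE, adjusted p = 0.0492, 12.9% of 3263 genes called), and was lost in 13 of 16 fits with 1 graft left out (log2 0.31 to 0.42, all but those without WT graft 2 or 4 or Rnls mutant graft 1 of day 17) and without the filter on low counts (0.25, adjusted p = 0.441). It also passed in the exact test (adjusted p = 0.0306), and the thinned share of NK cells with an Il2rb UMI rose from 38.7% to 48.2% (exact adjusted p = 0.00551). The 5 macrophage markers in NK cells summed to 11.9 to 66.4 CPM at day 10 (median 42.1) and 14.5 to 239 at day 17 (median 111), and their part in the result was not tested. In ILC1 the grafts were at 566 and 583 (WT) and 448 and 675 (Rnls mutant) at day 10 and at 1012 and 968 and 820.1 and 644 at day 17. The difference did not pass (0.42 ± 0.26, edgeR adjusted p = 0.281, 15.5% of 1770 genes called), and with 36 assignments the exact test cannot go below p = 0.0556 and gave 0.111.

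In T cells no change of Il2rb passed in the fits. The log2 change between the days was -0.25 ± 0.11 in CD8+ T cells (edgeR adjusted p = 0.0952, 21.4% of 6379 genes called), 0.08 ± 0.10 in CD4+ T cells (adjusted p = 0.586) and -0.04 ± 0.20 in regulatory T cells (adjusted p = 0.904, 15.7% of 2331 genes called). The thinned share of CD8+ T cells with an Il2rb UMI did fall, from 21.2% to 17.8% (exact adjusted p = 0.0441). The CD8+ call also passed without WT graft 1 of day 17 (-0.41, adjusted p = 0.0143) and without the filter on low counts (-0.38, adjusted p = 0.0152).

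Il2rg, the common gamma chain itself, was found in every type. It was highest in regulatory T cells (563 ± 80.5 CPM) and CD4+ T cells (491 ± 56.3), followed by CD8+ T cells (422 ± 49.9), NK cells (419 ± 71.2) and ILC1 (393 ± 99.0), and lower in Stem-Progenitor cells (209 ± 28.6), granulocytes (157 ± 88.9), monocytes (153 ± 48.9), macrophages (145 ± 41.8) and DC (108 ± 51.7). Neighbours in this order overlapped.

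Between the days Il2rg fell in macrophages, DC and monocytes, and granulocytes were not tested. In macrophages it was at 185, 199, 176 and 182 CPM in WT and 178, 175, 173 and 196 in Rnls mutant grafts of day 10. At day 17 it was at 123, 94.7, 129 and 104 and at 102, 85.6, 117 and 92.1. All 8 grafts of day 17 lay below all 8 of day 10. The mean went from 183 to 106, 1.92-fold lower (log2 -0.94 ± 0.08 SE, edgeR adjusted p = 1.58e-07), and p = 0.000408 was the smallest the exact test can give (adjusted p = 0.00551). This test counts the WT and the Rnls mutant graft of a mouse as separate, and with 4 mice against 4 the smallest p would be 0.0286. The thinned share of macrophages with an Il2rg UMI fell from 16.3% to 9.20%. Summed T cell markers in macrophages had a median of 7.29 at day 10 and 2.26 at day 17, against 2476 and 2433 in CD4+ T cells. The part of T cell RNA in the result was not tested.

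DC showed the same direction. Il2rg was at 183, 121, 156 and 119.9 in WT and 195, 132, 95.0 and 169 in Rnls mutant grafts of day 10, and at 139, 74.4, 28.6 and 82.4 and 57.3, 54.8, 42.2 and 79.5 at day 17. Only WT graft 1 of day 17 lay within the day 10 range. The mean went from 147 to 69.8 (log2 -1.19 ± 0.24 SE, edgeR adjusted p = 0.00105, exact adjusted p = 0.0138). Monocytes, a pair added after its values were seen, were at 195, 201, 182 and 183 in WT and 192, 187, 182 and 205 in Rnls mutant grafts of day 10. At day 17 they were at 113, 129 and 71.5 in the 3 WT grafts with enough cells and at 86.9, 117, 176 and 73.0 in Rnls mutant grafts, all below the day 10 range (-0.89 ± 0.17, edgeR adjusted p = 0.00168).

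The composition of the myeloid types changed as well. Macrophage cluster 4 made up 59.7 ± 15.5% of the macrophages of a graft at day 10 and 6.10 ± 4.73% at day 17, and cluster 2 went from 3.60% to 35.4 ± 13.3%. Within cluster 4, Il2rg was at 185 ± 13.4 CPM at day 10 and 169.9 ± 37.3 at day 17, with overlap. Within cluster 2 it was at 196 ± 15.8 in 3 grafts of day 10 and 95.7 ± 23.1 in 8 of day 17, and within cluster 12 at 170.4 ± 15.0 in 3 and 107 ± 25.7 in 6, without overlap in either. In cluster 5 it was at 194 ± 54.4 and 109 ± 43.5, with overlap. In DC, cluster 17 had 211 and cluster 19 had 25.1 Il2rg CPM, and cluster 19 made up 19.8% of DC at day 10 and 55.9% at day 17. In cluster 1 of monocytes Il2rg was at 193 ± 8.77 at day 10 and 118 ± 40.1 in 5 grafts of day 17, without overlap.

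In lymphoid types the changes of Il2rg were small. CD8+ T cells were at 443, 484, 504 and 435 in WT and 342, 441, 455 and 466 in Rnls mutant grafts of day 10, and at 443, 325, 403 and 439 and 433, 369.7, 371 and 399 at day 17. The days overlapped, and the difference of means (446 and 398) passed in edgeR (log2 -0.28 ± 0.09 SE, adjusted p = 0.0336) but not in the exact test (adjusted p = 0.0874). It was lost without WT graft 2 or 3 or Rnls mutant graft 3 or 4 of day 10, without graft 2 of either genotype of day 17 (edgeR adjusted p of 0.0520 to 0.0593), and without the 5% of cells with the most UMIs (-0.25, adjusted p = 0.0748). The 5 macrophage markers in CD8+ T cells summed to 13.9 to 54.0 CPM at day 10 (median 30.6) and 41.3 to 293 at day 17 (median 143), and their part in the result was not tested. In CD4+ T cells (-0.13 ± 0.09, edgeR adjusted p = 0.278), regulatory T cells (-0.10 ± 0.14, adjusted p = 0.683), NK cells (0.05 ± 0.14, adjusted p = 0.849) and ILC1 (0.38 ± 0.27, adjusted p = 0.334) the days did not differ past the threshold.

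Over all CD45+ cells, 5 of the 6 members passed between the days, where 57.6% of 12560 genes were called. In this sum, fewer cells of a type and less RNA per cell cannot be told apart. Il15 rose from 16.6 to 27.8 CPM (log2 0.71 ± 0.19 SE, edgeR adjusted p = 0.00545). Il2 fell from 11.1 to 5.27 (-1.11 ± 0.38, adjusted p = 0.0202), Il15ra from 18.0 to 10.6 (-0.84 ± 0.13, adjusted p = 4.65e-05), Il2rb from 134 to 83.5 (-0.77 ± 0.21, adjusted p = 0.00488) and Il2rg from 292 to 191 (-0.68 ± 0.10, adjusted p = 3.79e-05). Without WT graft 3 of day 10 the fall of Il2 no longer passed (-0.86, adjusted p = 0.0506). Il21, at 2.19 and 4.57, did not pass (0.92 ± 0.44, adjusted p = 0.0869), and passed without WT graft 3 of day 10 (1.28, adjusted p = 0.0188), WT graft 2 of day 17 (1.06, adjusted p = 0.0324) or the 5% of cells with the most UMIs (1.30, adjusted p = 0.0201). Inside the lymphoid types tested, the log2 change of Il2rb lay between -0.25 and 0.42.

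Of the 26 planned pairs that could be tested, which leave out Il2rg in monocytes, 12 passed between the days, 4 higher and 8 lower at day 17, against 34.9% of 57284 tests of a gene in a fit. Within single types it was 7 of 20, against 28.5% of 44724 tests, so the members' share was near that of all genes. Il2 in CD8+ T cells had too few UMIs to be tested. The exact tests called 11 of 27 pairs on CPM and 12 on the thinned shares. They were run on these pairs only, so there is no share over all genes to set beside these counts.

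**Figure D5:**
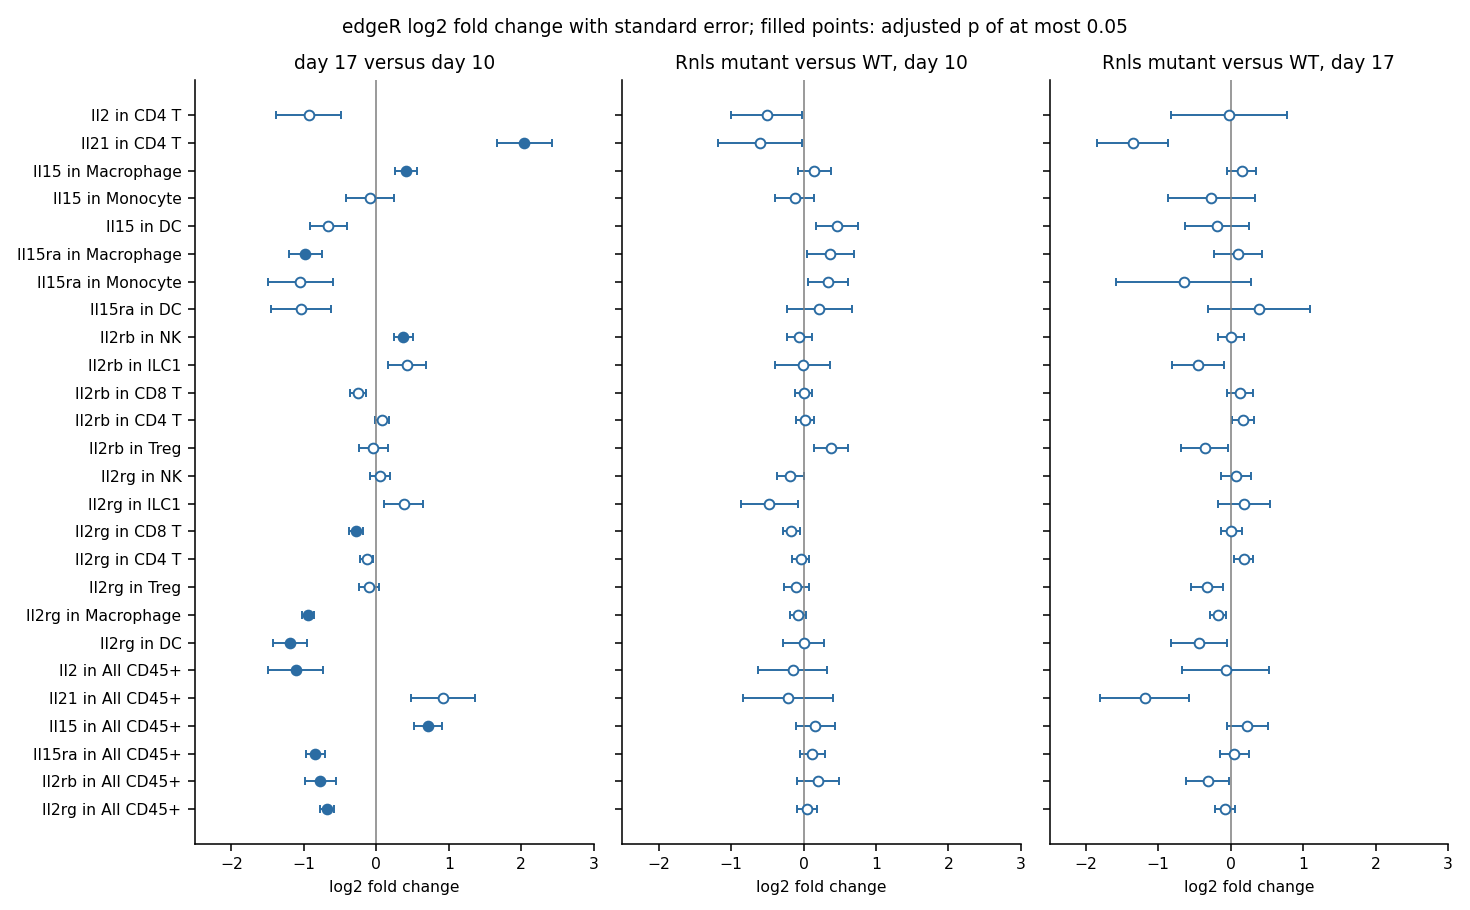
Log2 fold change with its SE (edgeR) of each member and cell population tested, for day 17 against day 10 and for Rnls mutant against WT at each day. Between the days, values ran from -1.19 (Il2rg in DC) to 2.04 (Il21 in CD4+ T cells) and 12 of 26 passed, and none of the 26 passed between the genotypes at either day.

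The genotype of the grafted beta cells left no difference past the threshold in any pair of the main fits. These fits and the exact tests compared the grafts as unpaired, so a difference within mice could be missed. At day 10, 0 of 26 pairs passed in edgeR, with 0 at an unadjusted p under 0.05, log2 changes of -0.60 to 0.46 and a smallest adjusted p of 0.652. At day 17, 0 of 26 passed, 1 had an unadjusted p under 0.05 (Il21 in CD4+ T cells), the changes ran from -1.35 to 0.39 and the smallest adjusted p was 0.370. DESeq2 called 0 pairs at either day. Over all genes, the genotype contrasts called 0.0995% of tests at day 10 and 0.120% at day 17. The exact tests on CPM gave no p at or below 0.05, with smallest values of 0.0857 and 0.143, where 4 against 4 grafts can reach 0.0286. On the thinned shares none of the 27 had such a p, but on unthinned cells 4 did at day 17 (p = 0.0286 each, exact adjusted p = 0.193), all for Il2rg and all lower in Rnls mutant grafts, whose library had a median of 3083 UMIs per cell against 5902 in WT. The difference of the genotype effects between the days was called in 0 of 26 pairs, with 0 at an unadjusted p under 0.05 and 0 by DESeq2 (0.271% of tests called over all genes). Standard errors at day 17 reached 0.93 for Il15ra in monocytes and 0.80 for Il2 in CD4+ T cells, and changes of that size cannot be told from the spread between grafts.

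The wider pathway was followed with a list of 40 genes: other cytokines, other receptor chains, kinases and STATs, feedback and survival targets, and helper T genes. In CD4+ T cells 14 of 32 tested rose and 3 fell between the days (median log2 0.28, against 0.01 over all genes of the fit, of which 36.6% were called). The smallest adjusted p values were those of the IL-21 receptor chain Il21r (log2 0.88, edgeR adjusted p = 1.97e-06), the transcription factors Stat4 (0.71) and Bcl6 (0.91), which directs follicular helper T cells, the feedback inhibitor Socs3 (0.96) and the survival gene Bcl2 (1.24). In CD8+ T cells 6 of 31 rose and 5 fell (21.4% of all genes called), among them the transcription factor Maf (2.45, edgeR adjusted p = 1.54e-08), Bcl2 (0.95) and Bcl6 (1.01) upward and Stat5a (-1.25), which acts downstream of IL-2 and IL-15, and Jak2 (-0.44) downward. In regulatory T cells 2 of 24 rose, Jak2 (0.66) and Maf (0.49), and none of the 24 fell (15.7% of all genes called).

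In NK cells 3 of 22 list genes rose and 2 fell (12.9% of all genes called). Bcl2 (0.79), Stat4 (0.51) and the survival gene Bcl2l1 (0.83) were higher at day 17, and Stat5a (-0.94) and the costimulatory receptor Icos (-1.03) were lower. In ILC1, Stat4 (1.69) and the IL-7 receptor chain Il7r (1.78) rose and none of the 20 fell (15.5% of all genes called). In macrophages 5 of 28 rose and 9 fell, a share like the 50.9% of all genes called there, with the chemokine receptor Ccr2 (0.89) among the former and the cytokine feedback inhibitors Socs1 (-1.96, edgeR adjusted p = 1.01e-06) and Cish (-1.04) and the receptor chain Il21r (-1.16) among the latter. In DC 3 of 26 rose and 8 fell (27.1% of all genes called), with Bcl6 (1.76) and Ccr2 (1.04) higher and Cish (-2.90) and Socs3 (-0.68) lower. In monocytes 4 of 27 rose, Bcl6 (1.63), Bcl2 (2.21), Stat5b (0.95) and Stat4 (1.50), and 2 fell, Socs1 (-0.84) among them (14.4% of all genes called). Over all CD45+ cells 10 of 36 rose and 8 fell (median -0.18, against 0.02 over all genes, of which 57.6% were called). Between the genotypes no list gene passed at either day. The difference of the genotype effects was called for Socs1 in regulatory T cells (log2 -2.03 ± 0.47 SE, edgeR adjusted p = 0.0260), where the effect of the mutant was 0.52 at day 10 and -1.51 at day 17, neither of which passed alone. In this fit 26 of 2331 genes were called for that difference, and day 17 had 3 grafts of each genotype.

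The genes whose levels ran most like those of a member were described by Pearson's r over 119 points of a graft and a cell type, on log2(CPM + 10) and among 5980 genes. The points share grafts and libraries, so no p is given. Il2 was nearest to Tnfsf8 (r = 0.81), Tnfsf11 (0.78) and Cd40lg (0.69), and Il21 to the same genes, Tnfsf11 (0.78), Tnfsf8 (0.76) and Cd40lg (0.71), which are surface ligands of activated T cells. Il15 was nearest to Nlrp3 (0.92), Ccr1 (0.92) and Mefv (0.91), which are known from granulocytes and monocytes. Il15ra was less closely matched, by Klra17 (0.55), Fscn1 (0.55) and Ccl22 (0.53), and the last pair also led DC cluster 21. Il2rb was nearest to Gm19585 (0.98), the T and NK cell kinase Txk (0.97) and the adaptor Sh2d2a (0.97), and Il2rg to Abcb1a (0.85), Shisa5 (0.84) and Gimap3 (0.84).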

How the data were processed

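CD45+ cells of 4 single-cell RNA sequencing libraries (10x Genomics 3′ chemistry) were analysed, 4 grafts per library. The authors deposited UMI counts per gene and cell, without normalization, and a table with the library, hashtag, cluster and cell type of each cell. The submitters' processing notes name Cell Ranger and mm10, and their versions and the filters on cells are not given in the sources used here. No cell lay under 1001 UMIs. No doublet caller was run, and the 5% of cells with the most UMIs in each library and type were left out as an alternative.

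Counts were summed per graft and cell type (at least 10 cells) and tested with edgeR 4.0.16 in R 4.3.3 (TMM, filterByExpr, glmQLFit, glmQLFTest), with genotype and day as 4 groups and Benjamini-Hochberg adjustment over all genes of a fit. A result passed, or was called, at an adjusted p of at most 0.05. Grafts given by hashtag were the replicates, and p-values measure the spread between grafts. The main fits and the exact tests had no term for the mouse. All p-values between the days, in edgeR and in the exact tests, therefore count both grafts of a mouse as separate. Those between the genotypes, in the main fits and the exact tests, are from unpaired tests of grafts that were paired within mice. CPM (UMIs per 1000000 of a graft and cell type) and shares of cells with a UMI (cells thinned to 1000 UMIs) were compared with two-sided exact permutation tests (SciPy 1.17.1, Python 3.11.15) with adjustment over the 27 pairs. Intervals and SDs do not cover differences between libraries. On simulated counts, recovery between days was taken over the changed genes that passed the filter on low counts. For CD4+ T cells (7858 genes) it was 89.8% at a log2 change of 1 and 100% at 2. For macrophages (9331 genes) it was 90.7% and 100%. Of the unchanged genes, 12 were called in CD4+ T cells and 8 in macrophages.

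The members and the gene lists were chosen with earlier results of these data known. Named were the 6 members in each pair, at most 5 list genes per cell type and contrast with the smallest adjusted p among those called (1 list gene is not reported here), and for each member the 3 most alike genes with a mean of at least 20 CPM. Alternatives were DESeq2 1.42.0, no filter on low counts, the hashtag number as a replicate block, a minimum of 20 cells, each genotype or day alone, unthinned cells and each graft left out in turn. Il2rg in monocytes was added after seeing the data.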

Additional observations from a re-analysis of the deposited data

Results flagged for a closer look

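In 94 groups of 4 grafts, a single graft was checked for lying far from the other 3, relative to the range of its group. Chance marks about 1 in 20 such groups, and 3 were marked here. Il21 in CD4+ T cells of WT graft 3 at day 10 was at 20.5 CPM (29 UMIs in 438 cells), where the other 3 grafts lay between 4.39 and 6.62. Il2rb in CD4+ T cells of WT graft 1 at day 10 was at 239.7 CPM, where the others lay between 195 and 202. Il2 in CD8+ T cells of WT graft 1 at day 17 was at 6.20 CPM, where the others were at 0, and that value rests on 2 UMIs in 81 cells. For the 26 tested pairs of a member and a cell population, no genotype effect differed between the days by the test of the difference.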

How the results depend on the processing

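The counts of pairs called between genotypes were 0 under DESeq2, at least 20 cells, each day alone, without the 5% of cells with the most UMIs and each graft left out (0 to 0). With the hashtag number as a replicate block they were also 0 (Il21 in CD4+ T cells at day 17: -1.18, adjusted p = 0.0965). Whether the numbers pair mice is not known. Over all CD45+ cells, same-numbered grafts correlated at -0.20 to 0.38 at day 10 and at -0.12 to 0.15 at day 17. There 1 of 4 matched best with its own number at each day. In macrophages it was also 1 of 4 at each day. In CD4+ T cells it was 2 of 4 at day 10 and 3 of 4 at day 17, where the correlations were 0.01 to 0.13. Without the filter on low counts 1 pair was called at day 17. Between the days, the count of 12 was 4 in WT grafts alone, a fit on fewer grafts, and 9 to 14 with a graft left out. The exact count of 11 was 7 on the mean over cells, and the cause was not tested.

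Directions turned only for changes that had not passed. Il15 in monocytes was 0.02 with DESeq2 and 0.04 in WT grafts alone (-0.58 to 0.25 with a graft left out). Il2rb was -0.01 (no filter) and -0.02 (WT alone) in CD4+ T cells, and 0.17 (at least 20 cells) and 0.33 (WT alone) in regulatory T cells (-0.34 to 0.08 with a graft left out). Il2rg was -0.08 (no filter) and -0.10 (WT alone) in NK cells (-0.07 to 0.14 with a graft left out) and 0.02 in regulatory T cells of WT grafts alone. With a graft left out, 26 values of single pairs lost and 9 gained a call. ILC1 had too few grafts for the minimum of 20 cells. With 1 library per genotype and day, no setting separates the library from the group.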
